A study of Mus musculus with 6 samples.

Results

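The genes described here are 10 that encode the oxidant-sensing pair NRF2 and KEAP1, well-known targets of NRF2 and antioxidant enzymes of phagocytes: Nfe2l2, Keap1, Nqo1, Gclm, Gclc, Txnrd1, Srxn1, Slc7a11, Sod2 and Prdx1. They were taken by gene symbol from a table of 24421 genes, all 10 were found, and all 10 passed the filter on low counts. Poly(A) RNA was sequenced from monocytes, circulating phagocytes of marrow origin, that had been sorted out of B6 mouse bone marrow. There were 3 GM-CSF libraries, from fresh monocytes given 5 ng of granulocyte-macrophage colony-stimulating factor (GM-CSF, no volume stated) for 3 h, and 3 control libraries with no cytokine. The controls are labelled as freshly isolated, yet a protocol shared by all samples describes 3 h in medium with or without GM-CSF, so time in culture and GM-CSF cannot be told apart. No genotype, sex or age is given, and the labels tie no replicate to a mouse or culture of its own, so the spread behind the p-values may be technical only.

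NRF2, the product of Nfe2l2, is a transcription factor whose amount is set largely at the protein level. KEAP1 holds it for ubiquitination by the CUL3 ligase, and oxidants or electrophiles that modify cysteines of KEAP1 let NRF2 accumulate. NRF2 then pairs with a small MAF protein and binds antioxidant response elements near genes for glutathione synthesis, the thioredoxin system and quinone reduction. These systems limit damage from the oxidants that phagocytes make. Messenger RNA levels alone do not measure NRF2 protein.

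Stretches upstream of 4 of the genes are shown because their promoter windows hold the element that NRF2 is known to bind or the related AP-1 element, and because the 4 genes differed widely in response. The stretches come from RefSeq windows on GRCm38.p6, lie upstream of the RefSeq start site, touch no annotated GENCODE M21 exon and read 5′ to 3′ on the strand of the gene. Capitals mark matches to the antioxidant response element core TGACNNNGC or to the AP-1 element TGACTCA. From the other strand the core appears as GCNNNGTCA, and the AP-1 element then appears as TGAGTCA.
Srxn1 (chr2:152105402-152105505, plus strand): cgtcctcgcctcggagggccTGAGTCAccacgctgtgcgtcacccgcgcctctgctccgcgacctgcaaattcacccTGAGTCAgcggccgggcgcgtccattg
Gclm (chr3:122245403-122245451, plus strand): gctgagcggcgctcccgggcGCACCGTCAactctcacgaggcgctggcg
Txnrd1, second of 3 windows (chr10:82859094-82859142, plus strand): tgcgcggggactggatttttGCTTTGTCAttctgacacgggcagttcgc
Prdx1 (chr4:116685349-116685494, plus strand): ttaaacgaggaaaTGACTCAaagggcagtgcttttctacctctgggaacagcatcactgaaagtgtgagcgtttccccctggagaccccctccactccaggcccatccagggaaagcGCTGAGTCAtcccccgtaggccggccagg
The Prdx1 match nearer the gene fits both motifs at once, with the core at positions -133 to -125 and the AP-1 element at -131 to -125 before the start site.

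Matches lay in genes that rose with GM-CSF and in Prdx1, which did not pass the test. Of the 9 members with a window of 300 bases (250 of them upstream), 5 held the core on either strand, namely Nfe2l2, Gclm, Txnrd1, Prdx1 and Srxn1. In Srxn1 the core lay after the start, at 29 to 37. Over all 32851 windows, 12.4% held the core and 5.20% the AP-1 element, and over all 27025 genes 14.0% held the core in at least 1 window. Srxn1 and Prdx1 also held the AP-1 element. No match lay in the windows of Keap1, Nqo1, Slc7a11 and Sod2, which says only that these letters are absent there. Gclc is named only.

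The libraries held 16643228 to 21468929 gene reads with GM-CSF and 20782467 to 25232956 in controls. Levels are given as CPM, which are read counts scaled to 1000000 gene reads per library, as means ± SD over 3 libraries per group where not listed singly. Log2 fold changes are GM-CSF over control with SE, from edgeR's quasi-likelihood test, and a gene changed when its p, adjusted by Benjamini-Hochberg over all 11731 genes tested, was under 0.05. The whole profile moved, so that 64.0% of tested genes changed, 32.8% higher and 31.2% lower (3851 and 3660 genes). With upper quartile scaling 3257 were higher and 4318 lower. GM-CSF replicate 3 stood slightly apart, with correlations of log2 CPM across genes of 0.980 and 0.983 with the other GM-CSF libraries, against 0.990 between those. Results are therefore also given without it where they moved.

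Of the 10 genes, 8 rose, Keap1 fell and Prdx1 missed the threshold. Their median log2 fold change was 2.20, beside 0.01 over all tested genes. At least 2-fold rises numbered 7, beside 11.9% of all tested genes, and none of the 10 fell by as much as 2-fold, beside 12.6%. In 9 of them no GM-CSF library overlapped a control library, beside 69.5% of tested genes. The plot of fitted changes shows the order, with Srxn1 first and Keap1 last.

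**Figure D1:**
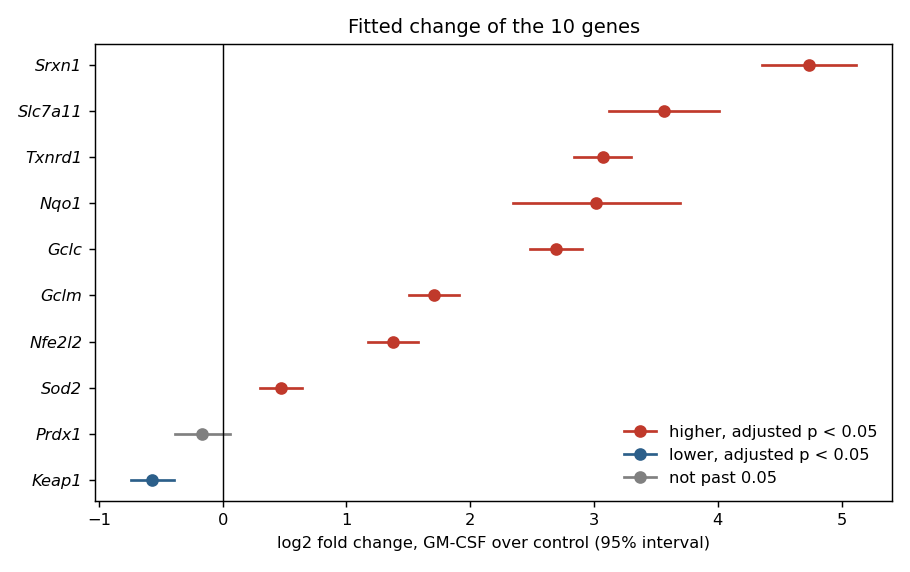
Fitted log2 fold change, GM-CSF over control, for each of the 10 genes, with 95% intervals from 3 libraries per group (edgeR). Srxn1 lies farthest to the right at 4.74, Keap1 to the left of 0 at -0.57, and the interval of Prdx1 crosses 0.

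The sensor pair moved in opposite directions. Nfe2l2 stood at 377, 358 and 313 CPM in GM-CSF replicates 1, 2 and 3, against 145, 130 and 129 CPM in the controls. Every GM-CSF library was above every control library, and the log2 fold change was 1.38 ± 0.09 (adjusted p = 2.66e-07). Keap1 stood at 91.4, 92.6 and 102 CPM with GM-CSF, against 147, 141 and 138 CPM in controls. All GM-CSF libraries were below all controls, a smaller change of -0.57 ± 0.08 (adjusted p = 7.11e-05). In mouse GRCm38, Nfe2l2 lies on chromosome 2 at 75675513 to 75704641 and Keap1 on chromosome 9 at 21229730 to 21239361. Both are protein-coding, and Keap1 shares 510 exon bases with the antisense gene Gm16754, whose reads cannot be told apart where strand is not used. In bulk RNA, for these and all later values, fewer cells of a type and less RNA per cell cannot be told apart.

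Genes that feed glutathione synthesis rose by unequal amounts. Slc7a11 encodes the cystine importer xCT, and its level was 38.2, 28.4 and 28.6 CPM with GM-CSF, against 3.38, 2.18 and 2.5 CPM in controls. The groups lay far apart, and the log2 fold change was 3.57 ± 0.20 (adjusted p = 8.04e-08). Gclc encodes the catalytic subunit of glutamate-cysteine ligase, the rate-limiting enzyme of glutathione synthesis. It stood at 224, 275 and 258 CPM with GM-CSF, against 40.6, 40.3 and 36.5 CPM in controls (2.69 ± 0.09, adjusted p = 2.57e-09). Gclm, the modifier subunit of the same enzyme, stood at 125, 127 and 105 CPM with GM-CSF, against 37.5, 36.1 and 36.1 CPM in controls (1.71 ± 0.09, adjusted p = 6.03e-08). Both subunits were higher in every GM-CSF library than in any control, the catalytic one by 6.46-fold and the modifier by 3.26-fold. Gclm shares 296 exon bases with Gm17494 on the opposite strand and 244 with the pseudogene Gm6061. The 3 genes lie on chromosome 3 at 49892526 to 50443614 (Slc7a11), on chromosome 9 at 77754535 to 77794485 (Gclc) and on chromosome 3 at 122245557 to 122270732 (Gclm).

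In the thioredoxin system, the reductase and the repair enzyme rose while the abundant peroxidase did not pass the test. Txnrd1 encodes cytosolic thioredoxin reductase, a selenoprotein that uses NADPH to recharge thioredoxin. Its level was 854, 807 and 711 CPM with GM-CSF, against 96.7, 83.5 and 104 CPM in controls (log2 fold change 3.07 ± 0.10, adjusted p = 1.96e-09). Srxn1 encodes sulfiredoxin, which restores overoxidized peroxiredoxins. It had the largest change of the 10 genes, at 245, 214 and 167 CPM with GM-CSF, against 9.42, 6.82 and 7.31 CPM in controls (4.74 ± 0.17, adjusted p = 3.66e-09). The lowest GM-CSF library was far above the highest control, and 1.17% of tested genes had a higher log2 fold change. Prdx1 encodes a peroxiredoxin that is a substrate of sulfiredoxin, and it stood at 635, 607 and 491 CPM with GM-CSF, against 693, 618 and 637 CPM in controls. Here the groups overlapped, with GM-CSF replicate 3 lowest, and the change of -0.16 had a 95% interval of -0.39 to 0.06 (adjusted p = 0.180). Prdx1 was called lower with upper quartile scaling (-0.28, adjusted p = 0.0305), which shifts the median of all genes to -0.11, and with a correction for GC content (-0.31, adjusted p = 0.0105). Without GM-CSF replicate 3 it was at -0.05 (adjusted p = 0.621). Txnrd1 lies on chromosome 10 at 82833951 to 82897712, Srxn1 on chromosome 2 at 152105516 to 152111376 and Prdx1 on chromosome 4 at 116685544 to 116700822.

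The quinone reductase and the mitochondrial superoxide dismutase differed in size of change. Nqo1, which encodes an NAD(P)H-dependent quinone reductase and is a standard readout of NRF2, was a low transcript. It stood at 9.18, 9.61 and 4.89 CPM with GM-CSF, from 154, 160 and 105 reads, against 1.0, 1.03 and 0.866 CPM in controls, from 24, 26 and 18 reads. The groups did not overlap, although GM-CSF replicate 3 was well below the other GM-CSF libraries. The log2 fold change was 3.02 ± 0.30 (adjusted p = 7.28e-06), and 3.28 without that replicate. Sod2 encodes the manganese superoxide dismutase of mitochondria, which is also a known target of NF-kB. It stood at 132, 131 and 116 CPM with GM-CSF, against 91.7, 89.6 and 94.0 CPM in controls. All GM-CSF libraries were above all controls, by 0.47 ± 0.08 on the log2 scale (adjusted p = 2.95e-04), the smallest rise of the 8. Nqo1 lies on chromosome 8 at 107388225 to 107403206 and Sod2 on chromosome 17 at 13006846 to 13040063.

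**Figure D2:**
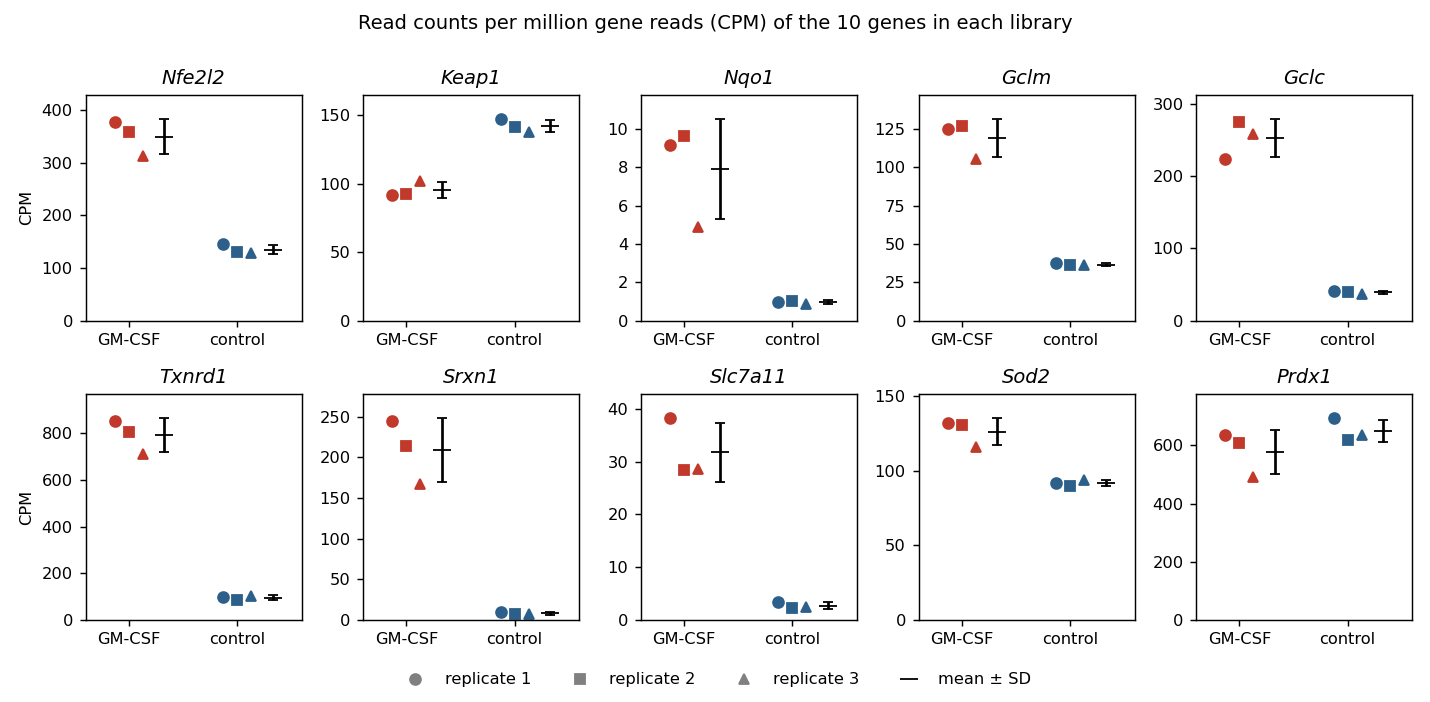
CPM of each of the 10 genes in every library on linear axes from 0, GM-CSF in red and control in blue, with marker shape for the replicate and black bars for mean ± SD (n = 3). The groups are apart in 9 panels and overlap in Prdx1, and the triangle of GM-CSF replicate 3 is the lowest red point in 7 panels.

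Within the GM-CSF group, replicate 3 was most often the lowest. It was the lowest GM-CSF library for 7 of the 10 genes, beside 38.9% of all tested genes. GM-CSF replicate 1 was the lowest for 2 (Gclc and Keap1), beside 37.7%, and GM-CSF replicate 2 for 1 (Slc7a11), beside 23.4%. Without GM-CSF replicate 3, the same 8 genes rose and Keap1 fell, with log2 fold changes of 4.88 for Srxn1, 1.46 for Nfe2l2, 0.54 for Sod2 and -0.61 for Keap1.

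Set per kilobase of exon (the union of annotated exons), the order of the levels differed between groups. With GM-CSF, Prdx1 came first at 190 ± 25.2 CPM per kb, followed by Txnrd1 at 112 ± 10.3, Nfe2l2 at 92.0 ± 8.64, Srxn1 at 74.0 ± 13.9 and Gclc at 66.9 ± 6.93 (SD, n = 3). The remaining 5 genes were at 20.3 (Keap1), 18.9 (Gclm), 12.6 (Sod2), 5.08 (Nqo1) and 2.28 CPM per kb (Slc7a11). In controls, Prdx1 was at 213 ± 12.9, Nfe2l2 at 35.6 ± 2.36, Keap1 at 30.3 ± 1.05, Txnrd1 at 13.4 ± 1.45 and Gclc at 10.4 ± 0.607 CPM per kb. Below these control levels came Sod2 at 9.17, Gclm at 5.81, Srxn1 at 2.78, Nqo1 at 0.622 and Slc7a11 at 0.193 CPM per kb. Thus Srxn1 was the fourth highest of the 10 levels with GM-CSF and the eighth in controls. Among neighbours with GM-CSF, libraries overlapped between Nfe2l2 and Srxn1, between Srxn1 and Gclc and between Keap1 and Gclm. Lengths of coding transcripts in place of the exon union exchanged Keap1 with Gclm and Nqo1 with Slc7a11 with GM-CSF, and Gclc with Sod2 in controls.

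Ratios within a library do not depend on how libraries are scaled, and all 5 ratios computed separated the groups without overlap. Each had an exact two-sided permutation p of 0.1, which is the smallest that 3 against 3 libraries allow, and 0.1 after adjustment over the 5. Each ratio divides the reads per kb of 1 gene by those of the other. Nfe2l2 to Keap1 stood at 5.10, 4.78 and 3.79 with GM-CSF, against 1.22, 1.15 and 1.16 in controls, a 3.85-fold higher ratio. Gclm to Gclc stood at 0.334, 0.277 and 0.244 with GM-CSF, against 0.552, 0.537 and 0.592 in controls, so the modifier subunit fell behind the catalytic one by 1.98-fold. Srxn1 to its substrate Prdx1 stood at 0.416, 0.381 and 0.368 with GM-CSF, against 0.0147, 0.0119 and 0.0124 in controls, a 29.9-fold higher ratio. Cytosolic Txnrd1 to mitochondrial Txnrd2 stood at 24.6, 20.9 and 16.7 with GM-CSF, against 1.74, 1.56 and 1.93 in controls. Mitochondrial Sod2 to cytosolic Sod1 stood at 1.04, 1.26 and 1.37 with GM-CSF, against 0.499, 0.630 and 0.574 in controls, a 2.15-fold higher ratio.

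**Figure D3:**
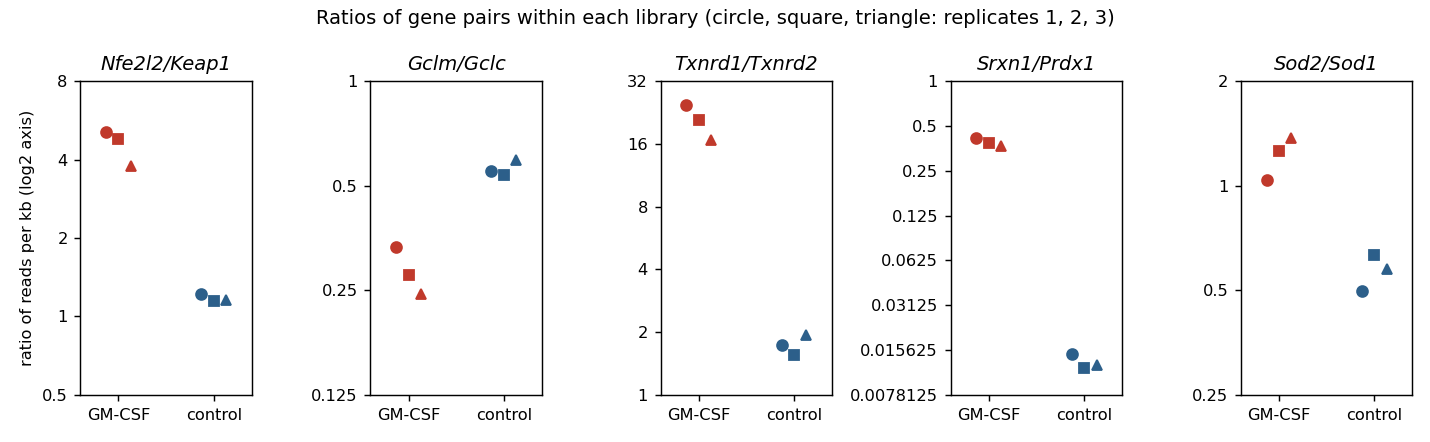
Ratio of reads per kilobase of exon for 5 gene pairs in each library, on log2 axes that differ in range, with GM-CSF in red left of control in blue. Gclm/Gclc is lower with GM-CSF, the other ratios are higher, and no panel has overlap between groups.

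The gene lists from here on leave out the 10 genes, so Keap1, which fell, is not counted here. Among the other proteins that pair with NRF2, compete with it or turn it over, 6 of 11 tested genes rose and none fell. Their median log2 fold change was 0.50, and of all tested genes 32.8% were higher and 31.2% lower. Maff, which encodes a small MAF protein, rose most, to 14.2 ± 3.01 CPM with GM-CSF, against 1.21 ± 0.0513 CPM in controls (3.54 ± 0.22, adjusted p = 1.71e-07). The other small MAF genes Mafk (0.84) and Mafg (0.50) also rose. Bach1, a repressor that occupies the same DNA elements, rose to 123 ± 3.83 CPM, against 64.2 ± 4.29 CPM in controls (0.94 ± 0.08). Nfe2l1 (0.91), a relative of NRF2, and Sqstm1 (0.87), whose product p62 binds KEAP1, rose as well.

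A list of further NRF2 targets left out those counted in other lists, such as NADPH supply. Its genes went both ways, 5 of 15 tested higher and 5 lower (median -0.01), a share near that of all genes. Slc3a2, the heavy chain partner of the Slc7a11 product, stood at 268 ± 28.0 CPM with GM-CSF, against 77.0 ± 5.67 CPM in controls (1.81 ± 0.10). Ephx1, an epoxide hydrolase, rose by 1.91 ± 0.34 on the log2 scale, the efflux pump gene Abcc1 by 0.82, and the ferritin genes Fth1 by 0.42 and Ftl1 by 0.22. The Ftl1 call ended without any 1 of 5 libraries, all but GM-CSF replicate 2, and with upper quartile scaling (0.11 to 0.23). The genes that fell were the carbonyl reductases Cbr3 (-2.33) and Cbr1 (-1.42), the efflux pump Abcc4 (-1.28), the reductase Ptgr1 (-0.51) and the haem transporter Slc48a1 (-0.50). Cbr3 was a low transcript, with 17, 12 and 3 reads in GM-CSF replicates 1, 2 and 3, against 68, 98 and 50 in controls.

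Hmox1, which encodes the inducible haem oxygenase, differed between the GM-CSF replicates. It stood at 196, 42.0 and 39.3 CPM in GM-CSF replicates 1, 2 and 3, against 162, 148 and 142 CPM in controls. GM-CSF replicate 1 was above all controls and the other GM-CSF libraries were far below them. Over all libraries Hmox1 was not called (-0.70, adjusted p = 0.234), whereas without GM-CSF replicate 1 it was lower (-1.90, adjusted p = 1.89e-08). Of the 10 genes, the same GM-CSF replicate 1 had the highest level of its group for Srxn1, Slc7a11, Txnrd1, Nfe2l2, Sod2 and Prdx1. Nqo1, Gclm and Gclc were highest in GM-CSF replicate 2 and Keap1 in GM-CSF replicate 3, and Gclc was lowest in GM-CSF replicate 1. How often GM-CSF replicate 1 was the highest over all genes was not computed.

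Among the other genes of glutathione metabolism, falls outnumbered rises. Of 22 tested genes of glutathione synthesis and use, 3 rose and 11 fell (median -0.30), beside 32.8% and 31.2% of all genes. Gpx1, the main cytosolic glutathione peroxidase, stood at 1688 ± 57.2 CPM with GM-CSF, against 3567 ± 176 CPM in controls (-1.07 ± 0.08, adjusted p = 5.38e-07). Glrx, a glutaredoxin, fell by 0.83, and Gpx4, which reduces lipid peroxides, fell by 0.65. The 3 that rose were Ggct (1.08), Chac1 (0.76), both of which encode enzymes of glutathione breakdown, and the glutaredoxin Glrx5 (0.24). The Chac1 call ended without GM-CSF replicate 1, control replicate 2 or control replicate 3 and with upper quartile scaling (0.65 to 0.67). The Glrx5 call ended in 6 of 17 alternatives (0.12 to 0.25), among them those without GM-CSF replicate 1 or 3 or control replicate 2 or 3.

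Of 16 tested thioredoxin and peroxiredoxin genes other than the 10 genes, 5 rose, a share near the 32.8% of all genes. In the same list 8 fell, beside 31.2%, and the median was -0.30. The peroxiredoxins themselves went both ways. Prdx6 stood at 851 ± 50.9 CPM with GM-CSF, against 399 ± 16.3 CPM in controls (1.10 ± 0.08), and the mitochondrial Prdx3 (0.88) and the secretory pathway Prdx4 (0.36) rose, while Prdx5 (-0.70) and Prdx2 (-0.46) fell. Sesn2, a stress-induced sestrin, rose by 1.91 ± 0.09 and Txnrd3 by 1.71 ± 0.23, whereas the sestrin Sesn1 fell by 1.59 ± 0.15. Txnip, which encodes an inhibitor of thioredoxin, stood at 143 ± 11.9 CPM with GM-CSF, against 405 ± 99.3 CPM in controls (-1.49 ± 0.15). The mitochondrial reductase Txnrd2 fell by 0.48, opposite to Txnrd1.

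All 3 tested genes of the superoxide dismutase and catalase list fell, beside 31.2% of all tested genes. That list leaves out Sod2, 1 of the 10 genes, which rose by 0.47. Cat, the catalase gene, stood at 81.8 ± 9.97 CPM with GM-CSF, against 162 ± 13 CPM in controls (-0.98 ± 0.10). Sod1 stood at 41.6 ± 8.38 CPM with GM-CSF, against 64.7 ± 8.25 CPM in controls (-0.63 ± 0.15), and its copper chaperone Ccs fell by 0.39. Sod3, the secreted form, was below the filter on low counts.

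Genes of NADPH supply, the reductant that these enzymes draw on, fell in 8 of 11 cases and rose in 1 (median -0.44), beside 31.2% and 32.8% of all genes. Idh1, the cytosolic isocitrate dehydrogenase, fell most, to 119.8 ± 9.33 CPM with GM-CSF, against 650 ± 105 CPM in controls (-2.43 ± 0.12). The NAD kinase gene Nadk fell by 0.79 and G6pdx, which opens the pentose phosphate pathway, by 0.44. The gene that rose was Me1, which encodes the cytosolic malic enzyme and was a very low transcript. It had 224 reads in the GM-CSF libraries, against 3 in the controls, a ratio of 95.2 per gene read with a 95% interval of 32.2 to 465 that covers counting error only. The control reads were 1, 2 and 0 in replicates 1, 2 and 3, and the fitted log2 fold change of 6.44 became 7.205 without control replicate 2.

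**Figure D4:**
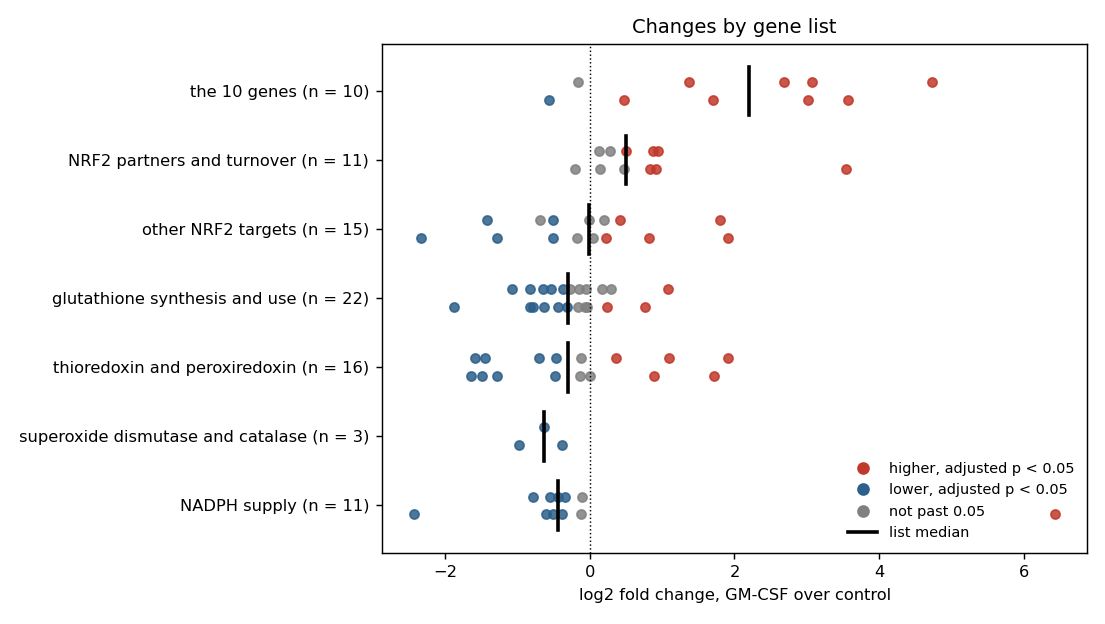
Log2 fold change, GM-CSF over control, of every tested gene by list, red for higher and blue for lower at an adjusted p under 0.05, grey otherwise, with the list median as a black bar. The 10 genes, which are left out of all the other lists, have a median of 2.20. Medians of the lists for glutathione use, thioredoxin, catalase and NADPH supply lie between -0.63 and -0.30.

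Summed markers of some other cell types also differed between the groups. All 9 markers of neutrophil precursors were detected, with a summed level of 11022 to 13915 CPM with GM-CSF, against 16894 to 22286 CPM in controls (exact two-sided permutation p = 0.1, the smallest possible). Within that list 5 granule genes fell (Camp, Ngp, Ltf, Mmp8 and Lcn2), Ctsg rose and 3 did not pass the test. Ctsg stood at 322 CPM with GM-CSF, against 261 CPM in controls (0.31, adjusted p = 0.0142), a call that ended without GM-CSF replicate 2, control replicate 1 or control replicate 2 (0.23 to 0.28) and with upper quartile scaling (0.19). Mpo was at 4677 CPM with GM-CSF and 4164 CPM in controls, Elane at 2460 CPM with GM-CSF and 2312 CPM in controls, and Prtn3 at 689.8 CPM with GM-CSF and 695 CPM in controls. The part of these cells in the falls of the antioxidant enzymes was not tested. All 8 monocyte markers were present. Their sum was 27417 to 29847 CPM with GM-CSF, against 59388 to 68351 CPM in controls, mostly Lyz2, while Csf1r was at 1642 CPM with GM-CSF and 1450.2 CPM in controls. Besides Lyz2, Cx3cr1 (-3.49), Ccr2 (-1.84), Fcgr1 (-0.86) and Ly6c2 (-0.34) fell on the log2 scale and Cd14 rose (4.43), while Csf1r (0.19, adjusted p = 0.0713) and Itgam (-0.14, adjusted p = 0.131) did not pass the test. Csf1r was called higher without control replicate 2 (0.26, adjusted p = 0.0229), with limma-voom and with the GC correction, and Itgam lower with upper quartile scaling (-0.26, adjusted p = 0.0119). Among 7 erythroid markers only Tfrc and Car1 reached a mean of 1 CPM over all libraries, and the list, mostly Tfrc, summed to 79.6 to 85.8 CPM with GM-CSF and 21.2 to 25.6 CPM in controls. T cell and NK cell lists, led by Cd3d and Gzma, summed to under 2 CPM in every library, and the 5 B cell markers, led by Cd79b, to 33.5 to 41.6 CPM with GM-CSF and 59.0 to 69.3 CPM in controls. Markers of eosinophils, basophils and mast cells, led by Mcpt8, summed to 3.4 to 9.49 CPM with GM-CSF and 3.88 to 6.50 CPM in controls, with Epx at 0 reads.

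The genes whose log2 CPM followed Nfe2l2 most closely over the 6 libraries were Appbp2, Cd164 and Rsl1d1, with Pearson correlations of 0.9995 to 0.9997 among 5359 candidates. As the 6 points form 1 cluster per group, this is a description, and 1352 candidates had a correlation over 0.95. All 3 genes rose, by 0.99, 1.70 and 1.53 on the log2 scale.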

How the data were processed

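The authors deposited raw read counts per gene symbol for 6 libraries, 1 column per sample, matched here to samples by title. Per the labels' protocols, reads were paired, 150 bases each. The build mm10 and the tools HTSeq 0.6.1p1, STAR 2.5.2a, Trim Galore 0.4.4 and edgeR appear in the submitters' processing notes, without roles. Strand use and annotation: not given in the sources used here. HTSeq-style summary lines did not enter library sizes: 7.82% to 9.72% of reads outside genes, 1.44% to 1.53% ambiguous, 18.0% to 19.6% without a unique position, through which genes with near-identical copies lose reads.

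The test was run with edgeR 4.0.16 in R 4.3.3 (TMM, filterByExpr with minimum count 10 and minimum total 15, glmQLFit and glmQLFTest, group as the only term). SE was taken as |log2 fold change| over the root of F. Ratios used 0.5 added reads. Coordinates and exon lengths are from GENCODE M21 (GRCm38). The procedure was tested on simulated counts.

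The members and gene lists were chosen with earlier results of these data known. Named were the members, per list the 2 largest rises and falls past the threshold with mean log2 CPM of at least 1, ratio partners, markers, and for Nfe2l2 the 3 most correlated genes. A further 21 pathway genes and some markers were named after their values were seen. Alternatives covered scaling, filters, a robust prior, a replicate block, limma-voom (limma 3.58.1), the DESeq2 1.42.0 Wald test, removal of the 10 most abundant genes and of each library. The GC correction was chosen after seeing the data. Deviations of same-numbered libraries correlated at 0.00384 to 0.0731, and those of differently numbered libraries at -0.0467 to 0.0304. With 3 libraries per group these values cannot decide whether samples were paired. The labels state no pairing, so the main test used group alone and the replicate block was an alternative.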

Additional observations from a re-analysis of the deposited data

How the results depend on the processing

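Of the 10 members, 9 kept direction and call in all 17 alternatives, with log2 fold changes of 4.59 to 4.90 for Srxn1, 1.26 to 1.46 for Nfe2l2, 0.35 to 0.54 for Sod2 and -0.68 to -0.49 for Keap1. Prdx1 was negative in all 17 (-0.31 to -0.05) and called in 2. Members called numbered 9 to 10, all genes called 6739 to 7739, and the counts of the 6 lists stayed within 1.5 times, although the rises among glutathione genes numbered 1 to 3. With the replicate block, 9 members and 7493 genes were called, and Hmox1 was lower (-1.12, adjusted p = 0.0202), as it was with limma-voom (-1.16, adjusted p = 0.0372). Over its 17 alternatives Hmox1 ran from -1.90 to -0.31 (adjusted p 1.89e-08 to 0.574). The cause was not tested. Of 62 other named genes, calls changed in Chac1, Ftl1, Glrx5, Hmox1 and the markers Csf1r, Itgam, Ctsg and Mpo (higher with the replicate block, 0.18, adjusted p = 0.0457), and Elane, not called, turned to -0.020 with upper quartile scaling. Prtn3, also not called, lay near 0 and turned positive with the replicate block (0.0024), limma-voom (0.0041) and the GC correction (0.085), and ran from -0.086 to 0.12 without single libraries. Ratios kept their direction without each library in turn and with 1 added read. Summed T cell markers, GM-CSF minus control, turned sign without single libraries (-0.0215 to 0.438 CPM), as did those of eosinophils, basophils and mast cells (-1.41 to 1.64 CPM). The low read counts of Nqo1 in controls limit its precision.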
